A study of Mus musculus with 6 samples.

Results

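The cells described here were the contractile, *Cnn1*-high mesenchymal cells of Day 7 cultures of mouse distal limb mesenchyme. A cell was taken as *Cnn1*-high if its barcode held at least 5 UMIs (unique molecular identifiers, each marking 1 captured transcript) of *Cnn1*, at least 0.2% of its UMIs from *Tagln* and fewer than 5 UMIs of *Prg4*. Of the 9355 cells of replicate A at Day 7, 677 met these limits (7.24%), and of the 9373 cells of replicate B, 676 did (7.21%). They made up 1353 of the 18728 Day 7 cells and of the 54126 cells of the series, where a cell is a barcode with at least 3000 UMIs, at most 7500 detected genes and at most 25% of its UMIs from mitochondrial genes. The other 17375 Day 7 cells served as the comparison, within each library. Because the cells were chosen by their *Cnn1*, *Tagln* and *Prg4* UMIs, the levels of these genes are a description, and genes that accompany *Cnn1* and *Tagln* from cell to cell were bound to differ between the chosen cells and the rest.

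The cells came from digits-in-a-dish (DID) cultures, in which mesenchyme from the distal forelimb buds of CD-1 mouse embryos at E11.5 is dissociated and plated at high density, with no growth factor added beyond those in fetal bovine serum. All cultures were wild-type CD-1 with no allele or agent that differed between groups, and the groups were set by the day of culture, Day 2, Day 7 or Day 10. Each day had its own 2 libraries, A and B, from independent cultures of pooled embryos. Day and any difference between batches of cultures or libraries therefore cannot be told apart. The libraries were prepared with version 3.1 of the 10x Genomics kit that reads the 3′ ends of transcripts. The total over cells ranged from 166797398 to 253858740 UMIs per library. Any pair of libraries shared between 36 and 120 of all their deposited barcodes, counted before the limits on cells.

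*Cnn1* encodes calponin, an actin- and myosin-binding protein of smooth muscle, and *Tagln* encodes transgelin (SM22), which cross-links actin. Together with smooth muscle actin they make up a contractile gene programme that smooth muscle cells keep on and that fibroblasts switch on when they become myofibroblasts. The transcription factor SRF, with its MRTF or myocardin partners, drives many of these genes by binding the CArG box, and YAP or TAZ with TEAD factors respond to stretch and stiff surroundings. In the developing limb, contractile genes are found in the vessel wall, and to a lesser degree in fibroblasts of tendon, perichondrium and connective tissue.

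The promoters of 5 genes that the results turn on are shown, each from 250 bases before to 50 after the RefSeq start of transcription (GRCm38.p6), 5′ to 3′ on the gene's strand. *Cnn1* chose the cells, *Acta2* and *Myl9* are the smooth muscle actin and myosin light chain genes, and *Lmod1* and *Ankrd1* were among the genes with the largest excess in the chosen cells. Capitals mark CArG boxes, CArG boxes with 1 G or C in the A/T core, and the TEAD motif CATTCC or its reverse complement GGAATG.
Cnn1 (chr9:22099003-22099302, + strand): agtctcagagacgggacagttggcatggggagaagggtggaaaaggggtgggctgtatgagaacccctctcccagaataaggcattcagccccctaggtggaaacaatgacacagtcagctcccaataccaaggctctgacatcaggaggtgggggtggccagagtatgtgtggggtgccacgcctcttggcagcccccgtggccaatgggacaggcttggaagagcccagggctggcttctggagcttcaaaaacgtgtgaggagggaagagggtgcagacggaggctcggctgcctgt
Acta2 (chr19:34255324-34255623, - strand): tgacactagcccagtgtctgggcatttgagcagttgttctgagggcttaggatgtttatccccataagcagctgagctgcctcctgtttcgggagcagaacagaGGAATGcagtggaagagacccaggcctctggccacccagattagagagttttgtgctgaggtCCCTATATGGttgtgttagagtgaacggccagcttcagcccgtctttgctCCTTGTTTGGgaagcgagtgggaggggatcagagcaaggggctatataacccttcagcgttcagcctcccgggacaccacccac
Myl9 (chr2:156775214-156775513, + strand): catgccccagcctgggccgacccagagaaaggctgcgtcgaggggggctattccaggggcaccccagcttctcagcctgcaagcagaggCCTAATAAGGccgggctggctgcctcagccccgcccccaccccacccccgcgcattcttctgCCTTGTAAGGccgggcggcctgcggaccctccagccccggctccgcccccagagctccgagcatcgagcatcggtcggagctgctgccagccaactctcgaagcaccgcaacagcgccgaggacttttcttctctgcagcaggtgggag
Lmod1 (chr1:135324563-135324862, + strand): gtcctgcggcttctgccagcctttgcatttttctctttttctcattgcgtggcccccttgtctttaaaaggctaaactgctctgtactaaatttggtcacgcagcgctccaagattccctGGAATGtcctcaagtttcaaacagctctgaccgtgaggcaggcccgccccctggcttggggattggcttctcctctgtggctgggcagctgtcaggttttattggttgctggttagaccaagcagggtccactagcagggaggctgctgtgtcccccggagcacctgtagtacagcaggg
Ankrd1 (chr19:36119795-36120094, - strand): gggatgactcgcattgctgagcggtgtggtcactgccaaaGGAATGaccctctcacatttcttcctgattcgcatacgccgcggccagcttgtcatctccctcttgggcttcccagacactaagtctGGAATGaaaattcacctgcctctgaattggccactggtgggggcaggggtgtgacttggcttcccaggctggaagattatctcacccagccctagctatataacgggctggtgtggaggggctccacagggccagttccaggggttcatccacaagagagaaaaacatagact

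Counting from the start of transcription, the *Myl9* window held a CArG box whose first base lay at -161 and a CArG box with 1 G or C at -99. The *Acta2* window held boxes with 1 G or C at -84 and -34 and a TEAD motif at -146. TEAD motifs began at -210 and -123 in the *Ankrd1* window and at -130 in the *Lmod1* window, and none of these letters occurred in the *Cnn1* window. Of 51 genes looked up, 44 had a window, and those without one included *Tagln*, *Actg2*, *Csrp2*, *Nexn*, *Stmn2* and *Wnt10a*. Both strands were searched, and no CArG box overlapped a TEAD motif in the windows shown. A gene was counted once, by a match in any of its windows. Of all genes with a window, 1.81% held a CArG box and 16.6% held the TEAD motif. In a contractile list of 35 genes, 32 had a window, and 4 of these held a CArG box (12.5%, *Myl9*, *Myl6*, *Cnn2* and *Vcl*) and 13 the TEAD motif (40.6%). Over the other gene lists, some with few windows, shares ran from 0% to 33.3% for the CArG box and from 0% to 66.7% for the TEAD motif. They were 15.4% and 23.1% for skeletal muscle genes and 0% and 31.25% for cartilage genes. Of the genes at least 2-fold higher in the *Cnn1*-high cells, 37 of the 983 with a window held a CArG box (3.76%) and 195 the TEAD motif (19.8%), against 1.42% and 16.5% of the genes with a window that were at least 2-fold lower. These matches are descriptions of letters and were not tested as binding sites.

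*Cnn1* (GRCm38 chromosome 9, 22099216 to 22109630, + strand) reached 518 CPM (UMI counts scaled to the same total in every sum) in the *Cnn1*-high cells of replicate A and 516 in those of replicate B, against 38.6 and 36.1 in the other cells. The median *Cnn1*-high cell held 15 *Cnn1* UMIs in both libraries, and the highest held 175 and 195. *Tagln* (chromosome 9, 45929619 to 45936058, - strand) stood at 5350 and 5361 CPM against 470 and 459, and *Prg4*, the lubricin gene that marks the joint surface, at 5.30 and 3.78 against 46.3 and 32.2. The limits fell inside a continuous range. Cells that met the other limits with 4 *Cnn1* UMIs, just outside, numbered 55 and 37, with *Acta2* at 3370 and 4618 CPM and *Actg2* at 159 and 241. Cells with exactly 5, just inside, numbered 46 and 41, with *Acta2* at 3885 and 3054 and *Actg2* at 102 and 141. Among all cells with at least 5 *Cnn1* UMIs, 981 and 937, the *Tagln* limit kept out 210 and 206, and the *Prg4* limit a further 94 and 55.

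The *Cnn1*-high cells were deep cells. Their median depth was 39461 UMIs in replicate A and 41656.5 in replicate B, against 17874.5 and 16611 in the other cells, and they detected a median of 5912 and 5916 genes against 3869 and 3685. They held 13.6% and 14.6% of the UMIs of their libraries. The limit of 5 *Cnn1* UMIs favours deep cells, so depth and the choice of cells cannot be told apart. All levels are given in CPM and are compared within a gene, not between genes. When both arms were limited to cells with at least 10000 UMIs, 5564 genes were called higher and 5664 lower, against the 5637 and 5891 with the 3000 limit. This did not match the depths, since the medians were still 39989 and 41776 UMIs against 25168 and 24809.5. Mitochondrial shares were alike (2.78% and 2.76% against 3.08% and 2.93%). No doublet caller was run. Of the *Cnn1*-high cells, 9 in replicate A and 13 in replicate B had at least 1% of their UMIs from *Col2a1* (1.33% and 1.92%, against 42.8% and 35.5% of the other cells), 2 and 4 had any UMI of the macrophage gene *Tyrobp*, and none of 677 and 676 had a UMI of the muscle gene *Myog*. This allows shares of cells with a UMI of up to 0.443% and 0.444%, or 0.543% and 0.544% by the exact 95% interval. Of the other cells, 0.461% and 0.391% had a *Myog* UMI, within the exact interval.

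The genes that accompanied *Cnn1* and *Tagln* included those of actin filaments and their anchors. Of the 35 genes of the contractile list, which leaves out *Cnn1* and *Tagln*, 34 were called higher and none lower, 29 of them at least 2-fold, with a median log2 difference of 1.79. Across all 17898 genes tested, 64.4% were called in either direction (31.5% higher and 32.9% lower, 7.59% and 14.3% at least 2-fold) and the median was -0.07. Because this is the contrast the limits were drawn on, these counts describe the cells and are given with no p-value.

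*Acta2*, smooth muscle α-actin, stood at 5879 CPM in the *Cnn1*-high cells of replicate A and 6087 in those of replicate B, against 535 and 533 in the other cells, a log2 difference of 3.52 ± 0.04 (SE). *Actg2* (chromosome 6, 83512905 to 83536265, - strand), the γ-actin of gut and other visceral smooth muscle, stood at 346 and 430 against 15.5 and 15.0 (log2 4.69 ± 0.10). No library of the one group reached the other in either gene. *Lmod1*, leiomodin, which nucleates actin filaments in smooth muscle, stood at 70.1 and 78.6 against 5.12 and 4.69 (log2 3.95).

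The proteins that bind along the filament were higher as well. *Tpm2*, β-tropomyosin, stood at 1421 and 1489 CPM against 238 and 210. *Tpm1* stood at 2387 and 2392 against 673 and 665, and *Cald1*, caldesmon, at 2082 and 2015 against 633 and 590. *Myl9*, the regulatory light chain of smooth muscle myosin, stood at 801 and 825 against 131 and 135 (log2 2.64). Its kinase *Mylk* differed less, at 42.4 and 40.6 against 22.3 and 21.0, and *Smtn*, smoothelin, was nearly level at 45.4 and 44.1 against 38.8 and 38.1. *Myl12b*, a light chain that nonmuscle cells use, was the only gene of the list not called (log2 -0.05). At the filament's anchors, *Vcl*, vinculin, stood at 299 and 276 against 80.9 and 73.3 and *Zyx*, zyxin, at 148 and 148 against 43.6 and 43.4. *Flna*, filamin A, stood at 447 and 419 against 139 and 133.

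**Figure D1:**
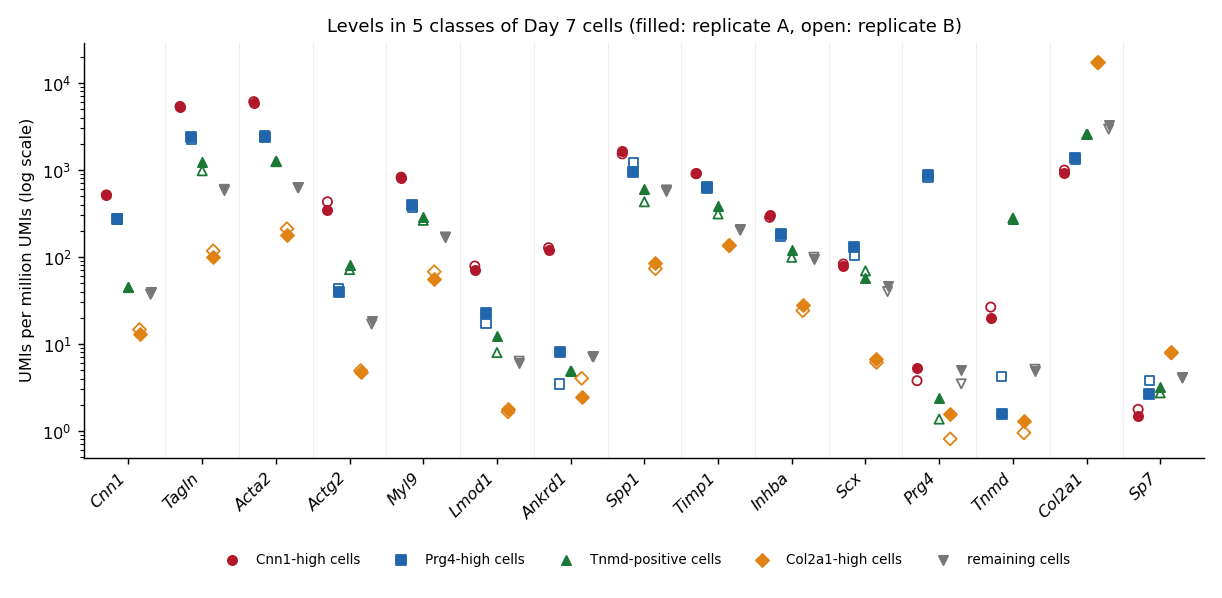
Levels of 15 genes in 5 classes of Day 7 cells, in CPM on a log axis, with a filled symbol for replicate A and an open one for replicate B. The *Cnn1*-high cells stood highest for *Acta2* (5879 and 6087), *Actg2*, *Lmod1* and *Ankrd1*, while *Sp7* was lower in them than in the *Col2a1*-high cells, which were set apart by *Col2a1* itself.

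The genes that separate mature smooth muscle and pericytes from other contractile cells were mixed. *Myh11*, smooth muscle myosin heavy chain, stood at 12.5 and 12.8 CPM in the *Cnn1*-high cells against 0.612 and 0.198, and a *Myh11* UMI was found in 9.01% and 12.4% of them. *Des*, desmin, stood at 58.8 and 60.7 against 11.2 and 5.87, and *Myocd*, myocardin, at 2.69 and 2.52 against 0.401 and 0.437. Pericyte genes did not share a direction. *Rgs5* was higher (29.7 and 19.0 against 4.70 and 3.57) and *Cspg4* was lower (66.3 and 59.9 against 145 and 124). *Kcnj8* stood at 0.106 and 0.307 against 0.645 and 0.857, and *Higd1b* was at 0 in every Day 7 sum. Over the smooth muscle and mural list, 9 of 12 tested genes were called higher and 2 lower, and the summed level was 366 and 353 CPM against 252 and 219.

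The factors that drive contractile genes were also measured. *Srf* stood at 9.43 and 9.96 CPM against 5.42 and 5.62, and its partner *Mrtfa* at 15.2 and 13.2 against 7.46 and 7.27, while *Mrtfb* was not called (12.9 and 13.4 against 15.0 and 14.4). Of the 4 factors, 3 were called higher and none lower. Against cells with at least 5 *Prg4* UMIs none of the 4 was called. Their summed level was 40.2 and 39.1 CPM in the *Cnn1*-high cells and 38.1 and 36.5 in that class. Against further cells with at least 3 *Tnmd* UMIs all 4 were called higher. Of 14 skeletal muscle genes tested, none was called higher and 13 lower, and *Myod1*, *Myog*, *Myh8* and *Ckm* were at 0 in the *Cnn1*-high cells of both libraries. The summed level of the list was 44.7 and 45.9 CPM against 207 and 55.3. It was lower, at 20.4 and 38.1, in cells with at least 5 *Prg4* UMIs and, at 12.99 and 17.0, in further cells with at least 3 *Tnmd* UMIs. Against the first of these classes 1 of 13 genes was called higher and none lower, beside 7.49% and 5.14% of all genes tested. Against the second 3 of 13 were higher and 1 lower, beside 24.9% and 22.2% of all genes.

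**Figure D2:**
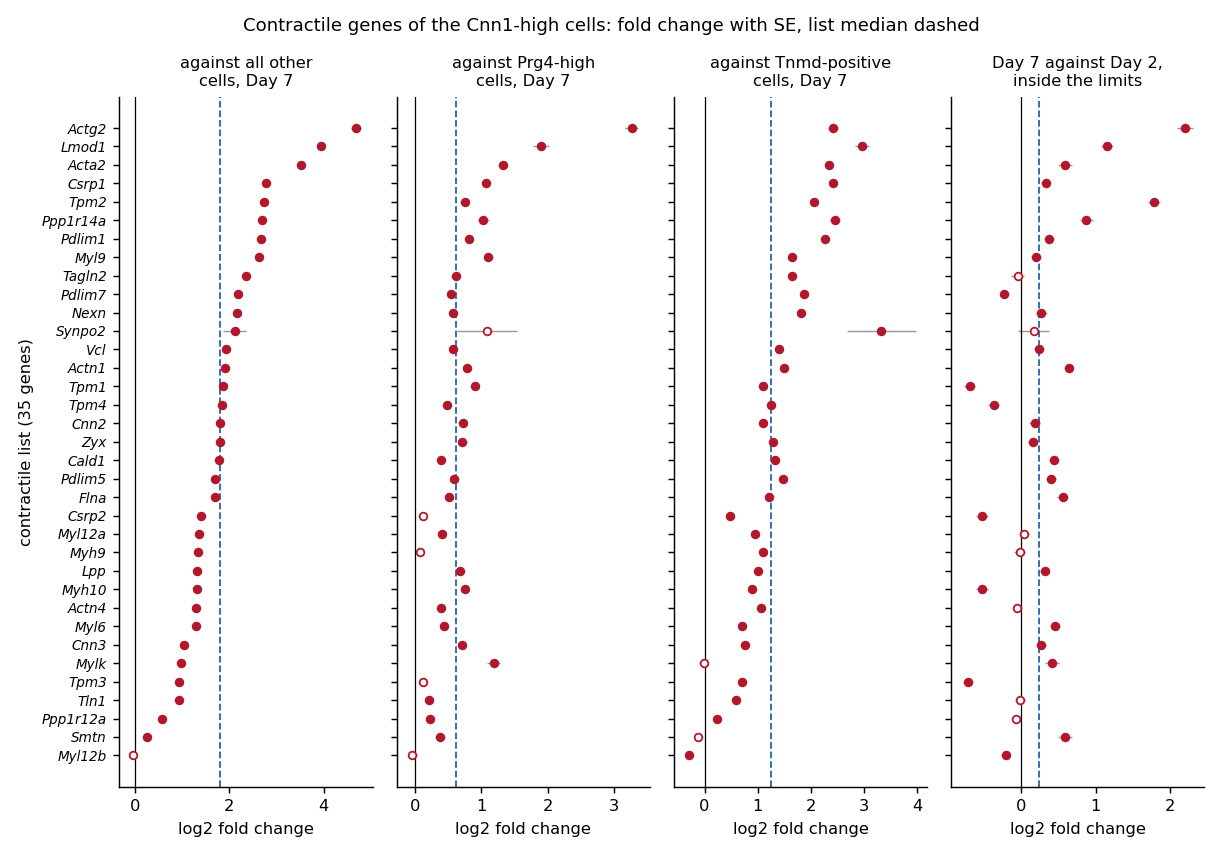
Log2 fold changes with SE (x axes) of the 35 genes of the contractile list (y axis), in 4 comparisons of the *Cnn1*-high cells; filled points were called, open ones were not, and the dashed line is the list's median. The median was 1.79 against all other cells, 0.62 against *Prg4*-high cells, 1.25 against *Tnmd*-positive cells and 0.24 between Day 7 and Day 2.

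Targets of YAP and TEAD did not move as a block. Of 20 genes, 14 were called higher and 4 lower, with a median log2 difference of 0.37. *Ankrd1*, an ankyrin repeat protein of muscle that is widely used as a YAP readout, stood at 121 and 128 CPM against 4.92 and 5.47 (log2 4.61 ± 0.17), and the receptor *Axl* at 55.2 and 55.8 against 14.3 and 13.7. The 2 secreted targets *Ccn1* and *Ccn2* split, with *Ccn1* lower (169 and 181 against 236 and 234) and *Ccn2* higher (321 and 324 against 233 and 226). *Tead1* stood at 144 and 135 against 69.3 and 69.7.

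Genes of TGF-β and activin signalling were mostly on the high side of the other cells. Of 26, 18 were called higher and 8 lower (median 0.47), beside 31.5% and 32.9% of all genes. Against cells with at least 5 *Prg4* UMIs, 7 were higher, 3 lower and 16 not called (median -0.03). The summed level in that class was 3806 and 3726 CPM, against 4211 and 3982 in the *Cnn1*-high cells. Against further cells with at least 3 *Tnmd* UMIs, 15 were higher and 6 lower. Among the ligands, *Inhba*, which encodes an activin subunit, stood at 305 and 285 CPM against 68.4 and 67.9, and *Tgfb3* at 124 and 118 against 31.5 and 30.2. Among the receptors, *Tgfbr3*, betaglycan, was lower at 3.36 and 3.07 against 12.02 and 12.9. *Pmepa1*, a feedback inhibitor, stood at 740 and 739 against 246 and 228, and *Thbs1*, thrombospondin, at 1737 and 1623 against 601 and 528.

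*Spp1* (chromosome 5, 104435118 to 104441050, + strand) encodes osteopontin, a secreted phosphoprotein of bone and of many activated stromal cells. It stood at 1628 CPM in the *Cnn1*-high cells of replicate A and 1528 in those of replicate B, against 357 and 371 in the other cells (log2 2.15 ± 0.08). *Igfbp7*, an insulin-like growth factor binding protein, stood at 1308 and 1226 against 378 and 405. The ligand *Wnt10a* stood at 6.78 and 7.84 against 1.44 and 1.09, and *Stmn2*, a microtubule-binding protein, at 74.6 and 82.1 against 9.02 and 8.01. These 4 genes and *Cnn1* are the ones that the study used to name osteoblasts, and it did so in these same libraries, so that their shared direction is no independent evidence.

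Most genes of the bone lineage were lower than in the other cells. Of the 13 genes of the bone list, 3 were called higher (*Spp1*, *Sparc* and *Col1a1*) and 8 lower, with a median of -0.72. *Runx2*, the transcription factor that starts osteoblast formation, stood at 26.6 and 22.3 CPM against 46.8 and 46.1, and *Sp7*, osterix, which acts after it, at 1.48 and 1.77 against 5.93 and 5.72. *Alpl*, the alkaline phosphatase of mineralizing cells, stood at 2.83 and 2.86 against 19.98 and 18.3. *Ibsp*, bone sialoprotein, stood at 0.636 and 1.84 against 3.66 and 5.46, and *Bglap2*, osteocalcin, at 0 in both libraries. The *Spp1* level thus stood beside levels of these bone genes below those of the other cells. Against cells with at least 5 *Prg4* UMIs, 1 of 12 bone genes was called higher, 3 lower and 8 not called. Of all genes in that comparison, 7.49% were higher and 5.14% lower. Against further cells with at least 3 *Tnmd* UMIs, 2 of 12 were higher and 8 lower, beside 24.9% and 22.2% of all genes.

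Fibrous matrix genes were higher by less. Of 36 matrix genes, 27 were called higher and 5 lower, with a median of 0.72. *Col1a1*, the main collagen of skin, tendon and bone, stood at 2473 and 2472 CPM against 1640 and 1515. *Fn1*, fibronectin, stood at 1509 and 1348 against 631 and 565, and *Lox*, the collagen cross-linking enzyme, at 405 and 389 against 141 and 130. The small proteoglycan *Dcn*, decorin, was far lower, at 18.4 and 16.9 against 144 and 154. *Timp1*, an inhibitor of matrix proteases, stood at 913 and 904 against 202 and 194, and the calcium-binding protein *S100a6* at 5073 and 5141 against 957 and 929. Adhesion genes leaned the same way, with 17 of 23 called higher and 6 lower. *Itga5* and *Itgb1*, which form the fibronectin receptor, stood at 82.6 and 74.5 against 29.8 and 26.1 and at 906 and 836 against 399 and 374. *Itga10*, a collagen receptor of cartilage, was lower and stood at 3.32 and 2.45 against 25.2 and 22.9.

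Markers of neighbouring tissues were checked in the same sums. All 21 cartilage genes tested were called lower (median -3.37), and their summed level was 2873 and 3134 CPM against 29480 and 27832. *Col2a1* stood at 925 and 994 against 9984 and 9262, and *Panx3*, *Matn1* and *Snorc* had the largest deficits among genes with at least 50 CPM in the other cells, with *Matn1* at 114 and 155 against 1918 and 1809. All 8 immune genes were called lower (median -3.88, summed 0.954 and 3.65 against 31.2 and 44.2). Of 8 endothelial genes tested, 3 were called higher and 1 lower, beside 31.5% and 32.9% of all genes. Their summed level was 53.3 and 53.2 against 24.9 and 25.2. *Flt1*, a VEGF receptor, made up most of it at 28.5 and 28.0 against 3.35 and 3.28, while the defining genes *Pecam1* (0.247 and 0.307) and *Cdh5* (0 and 0.0341) were at or near 0. The endothelial sum was 28.3 and 23.3 in cells with at least 5 *Prg4* UMIs. It was as high, at 55.2 and 55.1, in further cells with at least 3 *Tnmd* UMIs. Of 6 endothelial genes tested, 3 were higher and 1 lower against the first class, and 1 higher and 4 lower against the second.

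Of 11 tendon genes, 4 were called higher and 4 lower, near the 31.5% and 32.9% of all genes. *Scx*, scleraxis, stood at 77.9 and 82.8 CPM against 32.0 and 28.4, and *Tnmd*, tenomodulin, at 20.03 and 26.5 against 14.3 and 16.0. At least 3 *Tnmd* UMIs were found in 9.60% and 11.4% of the *Cnn1*-high cells against 3.11% and 3.24% of the shallower other cells. The articular list had 3 of 8 called higher and 4 lower, and the joint interzone list 2 of 7 higher and 3 lower. Both stand beside the same shares of all genes. The 4 perichondrium genes were all called higher, *Fbn1*, fibrillin, by 1.01 on the log2 scale and *Thbs2* by 0.14. The summed level of these 4 genes was 3152 and 3089 CPM in the *Cnn1*-high cells and 864 and 592 in *Col2a1*-high cells. It was higher, at 3568 and 3553, in cells with at least 5 *Prg4* UMIs and, at 3846 and 4012, in further cells with at least 3 *Tnmd* UMIs. The *Thbs2* call reversed with a *Tagln* limit of 0.5% (log2 -0.315) and with no limit on detected genes (log2 -0.16).

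Of 27 patterning genes of the limb bud, 12 were called higher and 11 lower, beside 31.5% and 32.9% of all genes. *Prrx1*, which marks limb mesenchyme, stood at 423 and 392 CPM against 178 and 167. *Msx2*, a target of BMP signalling, stood at 28.7 and 29.2 against 8.70 and 8.84, and *Lhx9*, a gene of distal mesenchyme, at 45 and 38.8 against 16.0 and 14.0. *Dlx6* stood lower, at 0.954 and 1.16 against 5.16 and 4.40. Among secreted BMP and WNT factors the BMP antagonist *Grem1* was higher (72.2 and 62.3 against 20.6 and 20.1) and *Gdf5*, the joint ligand, lower (1.10 and 1.81 against 9.79 and 12.3). Of the 17 BMP genes, 4 were called higher and 12 lower, and of the 23 WNT genes, 10 and 10, beside the same shares of all genes. Of the 10 insulin-like growth factor genes, 3 were called higher and 6 lower, with *Igf2* at 655 and 639 against 1991 and 1946.

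Genes of the cell cycle were higher than in the other cells in 19 of 21 cases and lower in 1, beside 31.5% and 32.9% of all genes. Against cells with at least 5 *Prg4* UMIs, 7 were higher, 1 lower and 13 not called, beside 7.49% and 5.14% of all genes. Against further cells with at least 3 *Tnmd* UMIs, 6 were higher, 3 lower and 12 not called, beside 24.9% and 22.2%. *Mki67*, present in cycling cells, stood at 96.9 and 91.5 CPM against 74.9 and 68.1 (log2 0.43, and 0.10 and not called with no limit on detected genes), and *Rrm2*, which makes DNA precursors, at 75.2 and 77.1 against 27.7 and 25.5. The 1 gene called lower against all other cells was *Cdkn1c*, an inhibitor of the cell cycle, at 348 and 346 against 2522 and 2561. *Cdkn2a*, another inhibitor, which was on no list, stood at 81.3 and 78.9 against 13.4 and 13.3. Of 11 genes that respond to tissue dissociation, 3 were called higher and 8 lower, with *Fos* at 51.4 and 48.3 against 338 and 378. Their part, and that of cell cycle and depth, in the other differences was not tested.

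The naming rule also reached genes that were on no list. *Gjb2*, the gap junction protein connexin 26, stood at 60.6 and 64.0 CPM against 5.05 and 4.65, and *Krt18*, a keratin of simple epithelia, at 124 and 124 against 12.1 and 12.7. *Ptgs2*, cyclooxygenase 2, stood at 91.7 and 81.4 against 11.8 and 11.5. *Filip1l*, a filamin A-interacting protein, stood at 209 and 202 against 25.3 and 22.7, and the transcript *2200002D01Rik* at 153 and 143 against 18.5 and 18.1. Over the 12 sums of the 6 libraries, inside and outside the limits, the genes whose levels were most like *Cnn1* were *Tagln* (Pearson r of log2 values 0.989), *Cald1* (0.987), *Pea15a* (0.987), *Ilk* (0.986), *Csrp1* (0.986) and *Vcl* (0.986), among 2713 genes. These sums share libraries and the split by *Cnn1* itself, so the likeness is a description.

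Cells differed in depth, so shares of cells with a UMI were also taken after thinning every cell to 3000 UMIs. The *Col2a1*-high cells of the same libraries (median 22214 and 24553.5 UMIs) were set beside them. How far UMIs in that class came from free RNA or from its own expression was not tested. *Actg2* was found in 60.6% and 66.3% of the *Cnn1*-high cells, and in 30.1% and 33.7% after thinning, against 1.81% and 1.63% of thinned *Col2a1*-high cells (7.77% and 7.90% before thinning). *Spp1* was found in 63.7% and 62.6% after thinning (87.9% and 89.1% before) against 16.6% and 11.8% (50.9% and 46.0%). Both shares were above those of the *Col2a1*-high cells in both libraries, and neither gene was found in every *Cnn1*-high cell. *Ankrd1* was found in 12.6% and 13.5% after thinning (32.2% and 37.4% before) against 1.06% and 1.21% (5.01% and 7.25%). *Sp7* was found in 0.148% and 0.740% after thinning (5.32% and 5.47% before), below the 2.14% and 2.06% (14.5% and 14.7%) of the *Col2a1*-high cells.

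Within the *Cnn1*-high cells, some genes were spread widely and others were held by few cells. The 68 cells with the most *Acta2* held 28.7% of its UMIs in replicate A and 28.0% in replicate B, and for *Igfbp7* these shares were 28.0% and 27.0%. The 68 cells with the most *Spp1* held 57.9% and 54.6% of it, and for *Actg2* the shares were 68.7% and 61.5%. They reached 77.4% and 78.0% for *Des*, 88.7% and 85.4% for *Ankrd1* and 99.4% and 98.7% for *Stmn2*. Per cell, *Acta2* ran from 1663 (5th percentile) over 5214 (median) to 11792 CPM (95th percentile) in replicate A and from 2022 over 5066 to 12809 in replicate B. *Actg2* ran from 0 over 32.9 to 1611 and from 0 over 58.6 to 1959. The sum of *Actg2* thus rested on a minority of cells, whereas *Acta2* was above 0 even at the 5th percentile.

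**Figure D3:**
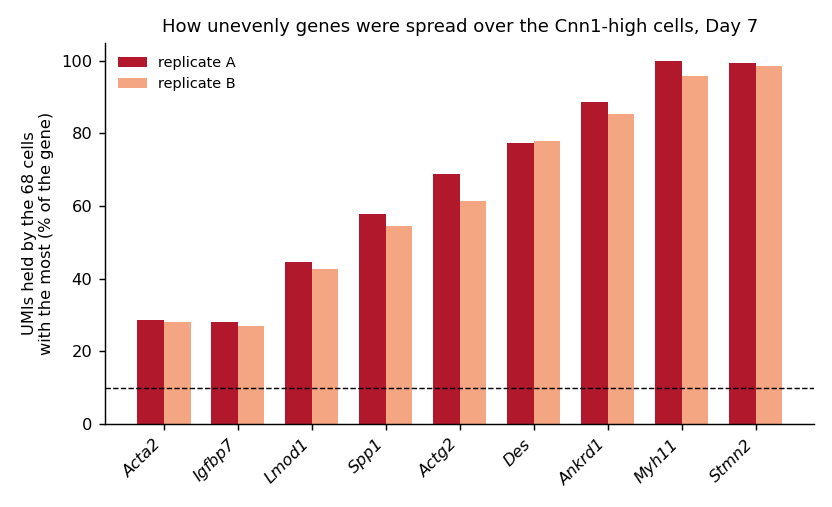
Share of each gene's UMIs (y axis, %) held by the 68 *Cnn1*-high cells of a Day 7 library with the most of that gene, by gene and replicate (bars); the dashed line at 10% is where equal counts in every cell would lie. UMIs were not thinned, so differences in depth and counting error also lift a gene above this line, most of all where its counts are low. *Acta2* stood at 28.7% and 28.0%, and *Stmn2* at 99.4% and 98.7%.

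The spread was also taken as variance. With cells thinned to 10000 UMIs, which left out 10 and 5 cells, the ratio of variance to mean over cells was 49.9 and 43.5 for *Spp1*, 19.7 and 21.6 for *Acta2*, 16.5 and 17.2 for *Actg2* and 14.1 and 14.6 for *Ankrd1*, against medians of 1.17 and 1.16 over 2642 genes. Across these 667 and 671 cells, which share libraries and the limits used to choose them, *Acta2* went with *Tagln* (Spearman 0.66 and 0.67) and with *Myl9* (0.51 and 0.58). *Spp1* did not go with *Acta2* (0.028 and 0.019) but went with *Timp1* (0.38 and 0.44), and *Timp1* with *S100a6* (0.43 and 0.44). *Actg2* had a UMI in 71.4% and 82.9% of the 35 and 41 cells with a *Myh11* UMI and in 41.8% and 48.9% of the rest. *Lmod1* had one in 71.4% and 70.7% against 36.9% and 42.2%.

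The other cells of Day 7 were split into classes by marker limits. A cell with at least 5 *Prg4* UMIs was *Prg4*-high (232 in A and 168 in B), and an unassigned cell with at least 3 *Tnmd* UMIs was *Tnmd*-positive (269 and 279). Of the *Prg4*-high cells, 94 and 55 also met the *Cnn1* and *Tagln* limits, whereas cells with at least 3 *Tnmd* UMIs that met all limits (65 and 77) were counted as *Cnn1*-high. The numbers of genes called are therefore not compared between these classes. These comparisons hold the *Cnn1*-high cells on one side as well, so their fold changes too are given with no p-value. The median depths were 37532.5 and 37933.5 UMIs in *Prg4*-high cells and 24978 and 25060 in *Tnmd*-positive cells.

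Against *Prg4*-high cells, 12.6% of 15344 genes tested were called (7.49% higher and 5.14% lower in the *Cnn1*-high cells), and of the contractile list 30 of 35 were higher, none lower, with a median log2 difference of 0.62. *Acta2* stood at 2416 and 2457 CPM in *Prg4*-high cells, below the 5879 and 6087 of the *Cnn1*-high cells and above the 535 and 533 of all other cells. *Actg2*, at 39.2 and 43.3, was nearer to the other cells, *Ankrd1* (8.15 and 3.46) was near their level, and *Stmn2* (1.12 and 2.36) below it. *Krt18* stood at 12.1 and 26.9, and *Mgll*, monoacylglycerol lipase, at 33.5 and 30.7 against 124 and 129 in the *Cnn1*-high cells. *Spp1* differed less, at 952 and 1214.

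Some genes stood higher in the *Prg4*-high cells. *Igfbp3* stood at 174 and 205 CPM against 37.0 and 34.6 in the *Cnn1*-high cells, *Angptl2* at 240 and 232 (log2 -1.12), and *Thbs4* at 59.9 and 41.3 against 17.2 and 17.8. *Pmepa1* (1093 and 1070 against 740 and 739), *Lhx9* (69.1 and 65.4), *Scx* (128 and 105) and *Hoxa13* (26.7 and 29.6 against 10.5 and 7.5) were also on the *Prg4*-high side. Matrix genes were balanced, with 11 of 36 higher and 11 lower. All 20 cartilage genes tested were lower in the *Cnn1*-high cells by a median of only -0.51, against -3.37 for the 21 tested against all other cells.

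Against *Tnmd*-positive cells, 47.1% of genes were called (24.9% higher and 22.2% lower). The contractile list had 32 of 35 higher and 1 lower with a median of 1.25, and *Acta2* stood at 1252 and 1243 CPM in the *Tnmd*-positive cells. *Gjb2* (2.92 and 3.61) and *Ankrd1* (4.91 and 4.85) were at or below the levels of all other cells there. *Mylk* was not called (log2 -0.02). *Igf1*, insulin-like growth factor 1, stood far higher in the *Tnmd*-positive cells, at 654 and 694 against 30.6 and 29.97, and *Igfbp3* at 215 and 236. *Scx* was close, at 57.4 and 69.0 against 77.9 and 82.8, and *Col1a1* was slightly lower in the *Cnn1*-high cells (log2 -0.29). *Lhx9* and *Hoxa13*, at 7.43 and 7.59 and at 2.52 and 1.62, were lower in the *Tnmd*-positive cells.

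The same limits were then applied to Day 2 and Day 10. They were met by 1252 of 8949 cells (14.0%) and 791 of 9742 (8.12%) at Day 2, and by 983 of 8350 (11.8%) and 966 of 8357 (11.6%) at Day 10, against 7.24% and 7.21% at Day 7. Among cells with at least 10000 UMIs the shares were 15.9% and 13.7%, 10.3% and 10.8%, and 13.6% and 13.5%. Both Day 7 libraries stood lowest under these 2 depth limits, and below both Day 10 libraries under every other limit tried, but their order with Day 2 replicate B depended on the limits. That library stood below both with at least 10 *Cnn1* UMIs (4.66% against 4.99% and 5.04%). It also did so with the limits on cells that the study used at Day 7, applied here to every day (4.74% against 4.98% and 5.47%). The study's own limits for Day 2 and Day 10 differed from these and were not tried. It stood between them with *Tagln* at 0.5% (3.35% against 3.20% and 3.39%), with no *Prg4* limit (8.16% against 8.24% and 7.80%) and without the 5% of cells with the most UMIs (5.997% against 6.01% and 5.69%). No test of these shares was run. Median depth inside the limits was 38408 and 36981 UMIs at Day 2 and 44506 and 43424 at Day 10.

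**Figure D4:**
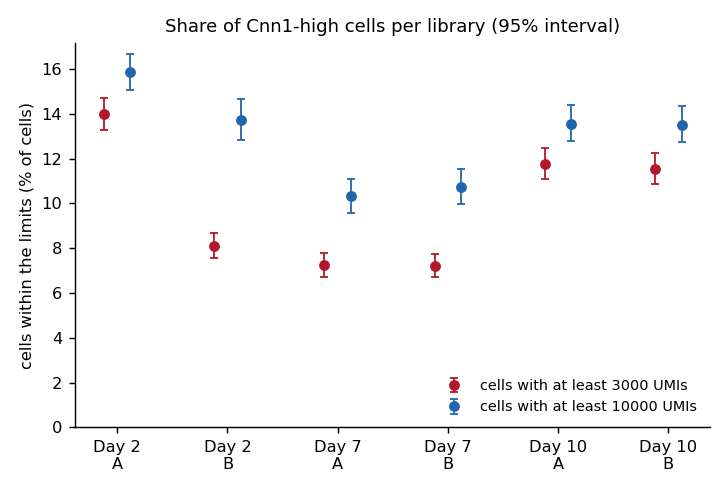
Share of cells within the limits (y axis, % of cells) in each of the 6 libraries, for cells with at least 3000 UMIs and for those with at least 10000, with exact 95% binomial intervals that cover counting error alone. The Day 7 libraries stood at 7.24% and 7.21% of cells with at least 3000 UMIs, below both Day 10 libraries.

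From Day 2 to Day 7 many genes changed inside the limits. *Cnn1*, at 392 and 414 CPM at Day 2 and 518 and 516 at Day 7, and *Tagln*, at 5065 and 5044 and then 5350 and 5361, were not tested, since the limits partly fix them. Of 14986 genes, 62.3% were called in either direction by edgeR's quasi-likelihood test, 4783 higher (31.9%) and 4556 lower (30.4%). The contractile list, with 21 of 35 higher, 7 lower and a median log2 change of 0.24, did not move as a block. *Actg2* rose from 99.2 and 93.4 CPM to 346 and 430 (log2 2.20 ± 0.11, adjusted p = 9.57e-09) and *Tpm2* from 499 and 465 to 1421 and 1489 (adjusted p = 2.9e-09). *Acta2* rose from 4902 and 4146 to 5879 and 6087 (log2 0.59 ± 0.09, adjusted p = 0.00013 by the same test). *Lmod1* rose from 36.2 and 40.1 (adjusted p = 1.25e-07), and *Des* from 20.5 and 15.5 (adjusted p = 2.51e-08). Of the 7 contractile genes that fell, *Tpm1* went from 4353 and 4426 to 2387 and 2392 (log2 -0.69, adjusted p = 6.2e-06). Outside this list, *Filip1l* fell from 442 and 416 (adjusted p = 2.88e-07), and the factor *Myocd* from 7.74 and 8.36 to 2.69 and 2.52 (adjusted p = 5.22e-06).

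Matrix genes rose widely, whereas of the 23 secreted WNT genes 6 rose and 13 fell and of the 17 BMP genes 5 rose and 11 fell. Of all genes tested, 31.9% rose and 30.4% fell. Of the 36 matrix genes, 33 rose and 2 fell, with a median of 1.31. Their summed level went from 7716 and 7471 CPM to 18966 and 18229 inside the limits and from 4726 and 4885 to 11893 and 11281 outside. The excess of the inside over the outside cells grew in 12 of the 36 and shrank in 13, beside 23.2% and 16.6% of all genes. *Col1a2* rose from 389 and 361 CPM to 2520 and 2497 (edgeR adjusted p = 1.05e-10) and *Lox* from 50.5 and 59.1 to 405 and 389 (adjusted p = 1.53e-10). *Timp1* rose from 138 and 117 to 913 and 904 (adjusted p = 2.72e-10). *Ccn5*, a secreted CCN protein, rose from 0.478 and 0.492 to 123 and 120 (log2 8.15 ± 0.10, adjusted p = 3.43e-13), and *S100a4*, a calcium-binding protein of fibroblasts, from 30.6 and 30.3 to 479 and 474 (log2 4.16 ± 0.07, adjusted p = 5.28e-12). *Ltbp2*, which binds latent TGF-β and elastic fibres, rose from 11.1 and 11.2 to 80.8 and 80.4 (adjusted p = 4.74e-11). Of the 26 TGF-β genes, 14 rose and 10 fell, beside the 31.9% and 30.4% of all genes. *Inhba* was among those that rose (from 117 and 111 to 305 and 285, adjusted p = 4.23e-09). *Spp1* rose from 836 and 596 to 1628 and 1528 (log2 1.33 ± 0.13, adjusted p = 2.59e-06). *Wnt10a* rose from 0.458 and 0.722 (adjusted p = 8.27e-09), and *Mgll* from 9.88 and 10.6 to 124 and 129 (adjusted p = 4.74e-11).

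Genes of the early bud and of division fell over the same days. Of 27 patterning genes, 3 rose and 21 fell, and of 21 cell cycle genes, 1 rose and 19 fell. The other cells moved the same way, with the patterning sum going from 2213 and 2254 CPM to 976 and 968 and *Mki67* from 219 and 228 to 74.9 and 68.1. The excess of the inside over the outside cells grew in 16 of the patterning genes and shrank in 6, and grew in 19 of the cell cycle genes and shrank in 2. Of all genes it grew in 23.2% and shrank in 16.6%. *Mki67* fell from 163 and 167 CPM to 96.9 and 91.5 (log2 -0.62), and *Bex2* and *Nnat*, genes known from the nervous system, from 74.6 and 78.1 to 2.93 and 3.99 and from 111 and 106 to 8.69 and 9.58 (edgeR adjusted p = 1.2e-10 and 8.1e-11). *Gap43*, a growth cone protein, fell from 143 and 136 to 18.9 and 21.3. Cartilage genes rose inside the limits, with 18 of 21 higher and 2 lower, *Acan* from 3.94 and 5.28 to 115 and 124 and *Snorc* from 0.219 and 0.262 to 70.2 and 113. Outside the limits *Acan* stood at 1193 and 1104 at Day 7 and *Snorc* at 1219 and 1217, and the part of free cartilage RNA in the rise was not tested.

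The excess of the *Cnn1*-high cells over the other cells was compared between days as well, in a model of all 12 sums. Between Day 2 and Day 7 the excess changed in 39.8% of 17898 genes (23.2% higher and 16.6% lower at Day 7), and of the 35 contractile genes it grew in 29 and shrank in 1, with a median of 0.52. For *Actg2* it grew by 2.11 ± 0.14 on the log2 scale (edgeR adjusted p = 1.1e-07), for *Tpm2* by 2.01 (adjusted p = 8.28e-10) and for *Acta2* by 0.98 ± 0.05 (adjusted p = 2.26e-08). For *Acta2*, levels moved on both sides, from 4902 and 4146 to 5879 and 6087 inside the limits and from 886 and 818 to 535 and 533 outside. In CPM the summed level of the contractile list was nearly level inside, at 22735 and 22367 at Day 2 and 22844 and 23001 at Day 7. Outside the limits this sum went from 9151 and 9471 to 5899 and 5720. The fit divides CPM by a further scaling factor (TMM). This fell from 1.07 and 1.10 to 0.944 and 0.915 inside, so on the fitted scale the inside sum rose. Outside it fell from 1.18 and 1.19 to 0.953 and 0.945, so the drop there was smaller than in CPM. *Des*, which stood lower inside than outside at Day 2 (20.5 and 15.5 against 39.7 and 29.6), stood higher inside at Day 7. Desmin is also a skeletal muscle protein, and the summed level of the skeletal muscle list outside went from 1220 and 899 to 207 and 55.3 CPM over these days. Its part in the *Des* reversal was not tested. The excess of *Spp1* did not pass the test of change (log2 0.01 ± 0.10, adjusted p = 0.934), and its level outside also went from 180 and 174 to 357 and 371. *Cnn1* and *Tagln* were left out of this test.

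From Day 7 to Day 10 fewer genes changed inside the limits, 32.0% of 14986 by the same test (15.5% higher and 16.5% lower). Contractile genes were split, with 11 of 35 higher and 8 lower and a median of 0.08. *Acta2* rose to 8132 and 7950 CPM (log2 0.43 ± 0.09, adjusted p = 0.00399) and *Actg2* to 577 and 649 (log2 0.66 ± 0.10, adjusted p = 0.000707). *Spp1* rose to 2230 and 2306 (adjusted p = 0.00772). Without Day 7 replicate A the calls of *Acta2* (edgeR adjusted p = 0.0683) and *Spp1* (0.0613) were lost, that of *Spp1* also without replicate B (0.0731), and the genes called fell in number from 2324 higher and 2473 lower to 865 and 1251. *Cdkn2a* rose from 81.3 and 78.9 to 212 and 219 (log2 1.43 ± 0.11, adjusted p = 1.12e-05) after 14.8 and 10.0 at Day 2, while *Mki67* fell to 46.6 and 40.7 (log2 -1.10, adjusted p = 2.73e-06). Of the 21 cell cycle genes, 2 rose and 17 fell. Of the 20 YAP targets, 5 rose, 1 fell and 14 did not pass the test. Among them, *Ccn1* and *Ccn2* rose to 389 and 349 and to 569 and 520 (edgeR adjusted p = 4.21e-06 and 2.08e-05), whereas *Ankrd1* did not pass the test (log2 -0.08), though it fell with no limit on detected genes (log2 -0.53, adjusted p = 0.00689). *Krt18* fell to 73.7 and 74.1 (adjusted p = 0.000728). Of the 11 dissociation genes, 9 rose and none fell, and their part in the rise of *Ccn1* was not tested. *Gadd45g*, a stress-response gene, rose to 107 and 114 (adjusted p = 6.68e-06).

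**Figure D5:**
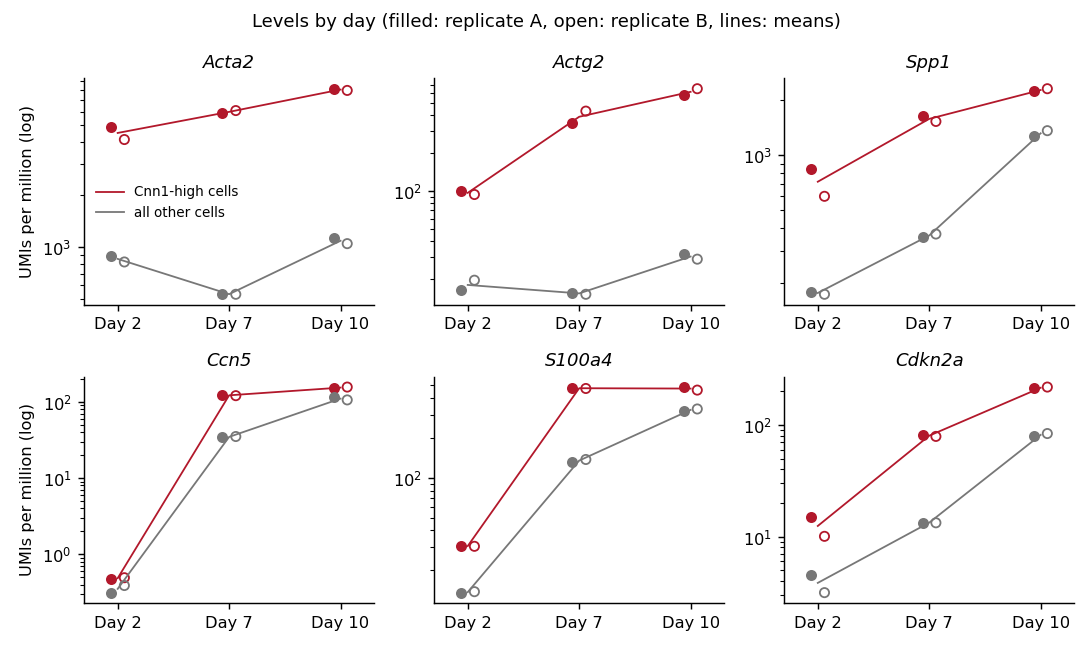
Levels of 6 genes at Day 2, Day 7 and Day 10, in CPM on log axes, inside the limits (*Cnn1*-high cells) and in all other cells; filled points are replicate A, open points replicate B and lines their means. *Actg2* went from 99.2 and 93.4 at Day 2 to 577 and 649 at Day 10 inside the limits, and *Cdkn2a* from 14.8 and 10.0 to 212 and 219.

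Between Day 7 and Day 10 the excess over other cells changed in 22.2% of genes (8.41% higher and 13.8% lower at Day 10). With DESeq2 the genes with a higher excess numbered 838 instead of 1505. The summed level of the contractile list went from 22844 and 23001 CPM to 25384 and 25142 inside the limits. Outside them this sum went from 5899 and 5720 to 7969 and 7919. In this list the excess shrank in 30 of 35 genes and grew in none, with a median of -0.35. For *Acta2* it changed by -0.53 ± 0.05 on the log2 scale (edgeR adjusted p = 1.71e-05), and its level outside went from 535 and 533 to 1124 and 1043, while for *Actg2* the change did not pass the test (log2 -0.24 ± 0.13, adjusted p = 0.217). For *Spp1* it changed by -1.26 ± 0.10 (adjusted p = 3.31e-06), with 1272 and 1361 outside the limits at Day 10. *Ibsp* rose inside, to 17.7 and 33.2 (adjusted p = 1.69e-05), and stood at 616 and 906 outside. The outside cells at Day 10 thus carried more *Spp1* and *Ibsp* than at Day 7, while *Ibsp* stayed lower inside.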

How the data were processed

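Single-cell RNA-seq of DID cultures was taken at Day 2, Day 7 and Day 10 (2 libraries a day, from independent cultures). The authors deposited UMI counts per gene and barcode, made with Cell Ranger 6.1.2, which aligns with STAR, on GRCm38/mm10, and the submitters' notes also name Seurat 4.1.0. Counts were used as deposited, with no correction for free RNA and no removal of doublets. The 6 libraries held between 11518 and 20188 barcodes. Cells were kept and chosen by the limits given in the report, and counts were summed per library and class of cells (R 4.3.3, edgeR 4.0.16). Genes were filtered with filterByExpr, scaled with TMM and tested with the quasi-likelihood test of edgeR, p-values were adjusted over all genes tested by the Benjamini-Hochberg method, and a gene was called at an adjusted p under 0.05. *Cnn1*, *Tagln* and *Prg4* (and *Tnmd* and *Col2a1* between classes) were left out of the tests. The comparison with other cells and its change between days were fitted on 12 sums with library as a block, days on 6 sums, and classes on 10 sums of the Day 7 libraries with library as a block. With 2 libraries a group, p-values measure the spread between these cultures. The cells, gene lists and tests were chosen with earlier results of these data known. Named genes were those the study or the limits name, the 4 most abundant and 2 most changed genes of each list, the 12 (or 8) largest called changes in each direction of a comparison with at least 50 CPM, and the 6 most like *Cnn1*. Other genes were named for their roles after their values were seen. Some genes that the naming rule reached are not reported here. DESeq2 1.42.0, other scaling, filters and limits were tried as alternatives. Steps were tested on simulated data. The labels do not say whether libraries with the same letter, A or B, are paired, and the main fits did not pair them. Their deviations from the day means had correlations of -0.084 (Day 2 and 7), -0.140 (Day 2 and 10) and 0.057 (Day 7 and 10) over 7741 genes. These values cannot exclude a shared source, which need not leave such a deviation.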

Additional observations from a re-analysis of the deposited data

Results flagged for a closer look

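The excess of the *Cnn1*-high cells over the other cells of their libraries differed between days by the test of the difference itself (edgeR quasi-likelihood, Benjamini-Hochberg adjustment). From Day 2 to Day 7 it was higher for 4145 genes and lower for 2971, and within the contractile list it was higher for 29 genes and lower for 1. The summed level of that list stood at 22735 and 22367 CPM inside the limits at Day 2 and at 22844 and 23001 at Day 7. Outside the limits it went from 9151 and 9471 to 5899 and 5720. These CPM leave out the TMM factors of the fit, which fell on both sides. On the fitted scale the inside sum rose and the outside sum fell by less. The largest changes on that list were in *Synpo2*, synaptopodin 2, an actin-binding protein (log2 2.33, with levels of 1.91 and 1.81 CPM inside the limits at Day 7), *Actg2* (2.11) and *Tpm2* (2.01).

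From Day 7 to Day 10 the excess was higher for 1505 genes (838 with DESeq2) and lower for 2477, and within the contractile list it was higher for 0 genes and lower for 30. On that list *Tagln2*, a transgelin of many cell types, changed by -0.76, *Pdlim1*, which links α-actinin to kinases, by -0.75 and *Tpm2* by -0.61 on the log2 scale, and outside the list *Spp1* changed by -1.26.

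Barcodes with more than 7500 detected genes were left out of the comparisons. Of the 485 such barcodes in Day 7 replicate A, 221 met the *Cnn1*, *Tagln* and *Prg4* limits (45.6%), and of the 403 in replicate B, 185 did (45.9%), against 7.24% and 7.21% of the cells kept. Whether these barcodes held more than 1 cell was not tested.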

How the results depend on the processing

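Of the 112 counts and shares recomputed under the alternatives, 87 stayed within their bounds and 25 moved. The bound was 1.5 times in either direction for a count of genes, and 1 SD between the libraries of a day for a mean share. The mean share of cells within the limits at Day 7 was 7.22%. It went to 8.27% with at least 3 *Cnn1* UMIs, 5.01% with at least 10 and 3.29% with *Tagln* at 0.5%. With no *Prg4* limit it was 8.02%, and for cells with at least 10000 UMIs 10.5%. A further 3 alternatives were chosen after seeing the data. They gave 5.85% without the 5% of cells with the most UMIs, 5.23% at the study's Day 7 limits and 8.97% with no limit on detected genes. The study's Day 7 limits were applied to every day. In the same order the Day 10 mean of 11.7% went to 14.2%, 7.78%, 6.06%, 12.7%, 13.5%, 10.2%, 10.3% and 14.1%. The Day 2 mean of 11.1% went to 6.57% with at least 10 *Cnn1* UMIs and 4.73% with *Tagln* at 0.5%. Between Day 7 and Day 10, leaving out 1 library gave 865 to 1542 genes higher (2324 with all) and 1251 to 1763 lower (2473), the lowest without Day 7 replicate A. DESeq2, added for the change of the excess, gave 838 genes higher between Day 7 and Day 10 against 1505. With the letter as replicate block, 4710 genes were higher and 4483 lower between Day 2 and Day 7, and 2189 and 2402 between Day 7 and Day 10. Whether libraries with the same letter are paired is not known, and this block changed no count by over 1.5 times. Leaving out a library from the comparisons between classes left no spread to test with, so it gave no value. *Thbs2* reversed with *Tagln* at 0.5% (log2 -0.315) and with no limit on detected genes (-0.16). Of 1992 recomputed values of single genes, 1971 kept their direction and call, 13 lost the call, 6 gained one and these 2 reversed. The cause of these shifts was not tested beyond the fewer libraries that a left-out library means.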

Other observations

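Several genes outside the lists changed from Day 7 to Day 10 in the *Cnn1*-high cells. *Ly6a*, the surface antigen Sca-1, stood at 161 and 133 CPM at Day 7, above the 19.1 and 16.8 of *Tnmd*-positive cells and below the 268 and 250 of *Prg4*-high cells. At Day 10 it fell to 67.6 and 82.0 inside the limits (log2 -0.97, edgeR adjusted p = 4.68e-05) while it stood at 74.5 and 88.9 outside, up from 33.2 and 30.1. *Anxa8*, an annexin, went the same way inside the limits, from 38.9 and 34.7 to 18.6 and 19.0 (log2 -0.96, adjusted p = 3.51e-05). *Penk*, which encodes enkephalins, rose from 133 and 99.2 to 225 and 273 (log2 1.11, adjusted p = 7.71e-05), *Gas6*, the ligand of the receptor Axl, from 27.7 and 30.3 to 53.1 and 55.3 (log2 0.91, adjusted p = 1.67e-05), and *Txnip*, an inhibitor of thioredoxin, from 25.4 and 25.7 to 57.8 and 57.3 (log2 1.18, adjusted p = 1.29e-05).

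The largest decreases from Day 7 to Day 10 were in transcripts that also fell outside the limits. *Gm42418*, which overlaps ribosomal RNA sequence, fell from 9650 and 8961 CPM to 1583 and 1448 inside the limits and stood at 29569 and 32416 and then 2551 and 2503 outside. *Hist1h2ap*, a histone gene, fell from 935 and 953 to 73.1 and 10.3 (outside 493 and 420, then 55.7 and 8.59), and its 2 Day 10 libraries lay far apart.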
